A study of Mus musculus with 6 samples.

Results

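The genes described are 10 core components of the inflammasomes, taken by symbol from the count table with 1 row per Ensembl identifier, and they are 10 of the 40481 genes counted. They comprise 6 sensors (*Nlrp3*, *Nlrp1b*, *Nlrc4*, *Naip5*, *Aim2* and *Mefv*), the adaptor *Pycard*, the inflammatory caspases *Casp1* and *Casp4*, and the effector *Gsdmd*. Each of the 10 passed the filter on low counts and entered the comparison of 14778 genes.

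Inflammasomes are protein platforms that macrophages assemble in the cytosol when a sensor meets a microbial product or a sign of cell damage. A sensor joins the adaptor ASC or binds caspase 1 itself, caspase 1 is activated, and it cuts the precursors of IL1B and IL18 and the pore-forming protein gasdermin D, through which the cytokines leave and the cell may lyse. In macrophages the genes of some components are already transcribed before any stimulus, while others are known to need a priming signal through NFkB or interferon.

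RNA was sequenced from unstimulated bone marrow-derived macrophages (BMDMs), which are mouse bone marrow cells grown into macrophages for 5 to 6 days in DMEM with 10% FBS and 10% CMG-conditioned medium and kept afterwards at 2% of that medium. The groups were 3 wild-type (WT) libraries and 3 *Scd2-m/-m* libraries, from mice in which floxed *Scd2*, the gene of a stearoyl-CoA desaturase, is deleted by a lysozyme M-Cre transgene that is active in myelomonocytic cells. Mice of the study were of both sexes and aged 2 to 5 months, but sex and age are not given per library, and whether the wild-type mice carried floxed alleles or Cre is stated in none of the sources used here. Nothing in the labels says that replicates of a genotype came from separate mice or cultures, so the p-values measure the spread between these libraries, which may be technical.

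The libraries held from 46285176 to 57629638 counts on genes. *Scd2*, the deleted gene, was measured at 66.9, 77.8 and 62.7 CPM (counts scaled to a common total per library) in the WT libraries and at 59.5, 38.0 and 39.8 in the *Scd2-m/-m* libraries, so that *Scd2-m/-m* replicate 1 was nearest to the WT range. The log2 fold change of *Scd2* was -0.59 (SE = 0.19) with an adjusted p of 0.10 from edgeR's quasi-likelihood test, and *Scd2* was called lower without *Scd2-m/-m* replicate 1 (adjusted p = 8.87e-05) and, on all 6 libraries, with limma-voom (adjusted p = 0.0105), with quality weights (adjusted p = 9.75e-05) and on log2(CPM + 0.5) with limma (adjusted p = 0.00943). Each of the 10 macrophage markers looked at was detected, of which 2 were called higher and 4 lower, and their summed level was 41238 to 41847 CPM in WT and 26530 to 27052 CPM in *Scd2-m/-m* libraries. The most abundant of them was *Lyz2*, the lysozyme gene into which the Cre is inserted, at 22751 ± 584 CPM against 9029 ± 357 CPM (mean ± SD, n = 3 per genotype), and the other 9 markers summed to 18619.6 to 19138 CPM in WT and 17476 to 17958 CPM in *Scd2-m/-m*. The sum of these 9 hides calls in both directions. *Adgre1*, *Csf1r* and *Mertk* were called lower, with log2 fold changes of -0.49, -0.38 and -0.33. *Cd68* and *Lgals3* were called higher, at 0.22 and 0.51. Of 9 tested markers of monocytes and progenitors, 6 were called higher and 1 lower in *Scd2-m/-m* libraries, and their sum was 107 to 118 CPM against 170 to 242 CPM, highest in *Scd2-m/-m* replicate 3. Of 9 tested neutrophil markers, 5 were called higher and 1 lower, with sums of 183 to 192 CPM and 161 to 193 CPM. Most of this sum was *Csf3r*, the marker called lower, at 164 ± 6.16 CPM in WT and 135 ± 12.0 CPM in *Scd2-m/-m*. The sum therefore hides the 5 called higher, *S100a8*, *S100a9*, *Ngp*, *Ltf* and *Mpo*, whose log2 fold changes ran from 0.95 to 1.74. The defining marker *Ly6g* was at 0 counts throughout the WT group and at 2, 0 and 2 counts in *Scd2-m/-m*. Among markers of other cells, summed levels were 52.3 to 117 CPM for B cells and at most 61.6 CPM in any library for dendritic, mast, T and NK, erythroid and stromal cells. Called higher were 2 of 7 tested dendritic cell markers and 1 of 3 B cell markers, each under 1 CPM in every library. Of 3 tested erythroid and megakaryocyte markers, 1 was called lower. The B cell sum was mostly *Ighm* (86.5 ± 32.5 and 88.4 ± 18.4 CPM). The erythroid sum was mostly *Pf4*, the marker called lower (54.3 ± 4.81 and 40.8 ± 1.41 CPM). In bulk samples such as these, a change in the number of cells that express a gene and a change in the RNA of that gene per cell cannot be told apart, and the part of the marker shifts in the results below was not tested.

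In unstimulated *Scd2-m/-m* macrophages, 4 of the 10 inflammasome genes were higher than in WT macrophages (*Aim2*, *Casp1*, *Pycard* and *Naip5*), 2 were lower (*Nlrp3* and *Mefv*), and 4 were not called (*Nlrp1b*, *Casp4*, *Gsdmd* and *Nlrc4*). A gene was called at an adjusted p below 0.05 over all genes tested, by edgeR. Across all genes tested, 17.5% were called, 9.65% higher and 7.84% lower in *Scd2-m/-m*. The libraries of the genotypes did not overlap for 6 of the 10 genes, the same 6 that were called, against 34.9% of all genes tested. The changes were small: the log2 fold changes ran from -0.50 to 0.58, with a median of 0.20 for the 10 genes and of 0.0039 for all genes tested, and the median size of the change was 0.32 and 0.16. Genes this well counted are called more readily at a given fold than genes with few counts, and each of the 10 genes held at least 232 counts in every library. Without *Scd2-m/-m* replicate 1, the library with the highest *Scd2* of its genotype, 6 members were called higher and 1 lower. The count of members called lower was also 1, through the loss of *Mefv*, without WT replicate 2 and without *Scd2-m/-m* replicate 2, settings in which 1490 and 1440 of all genes were called instead of 2585.

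**Figure D1:**
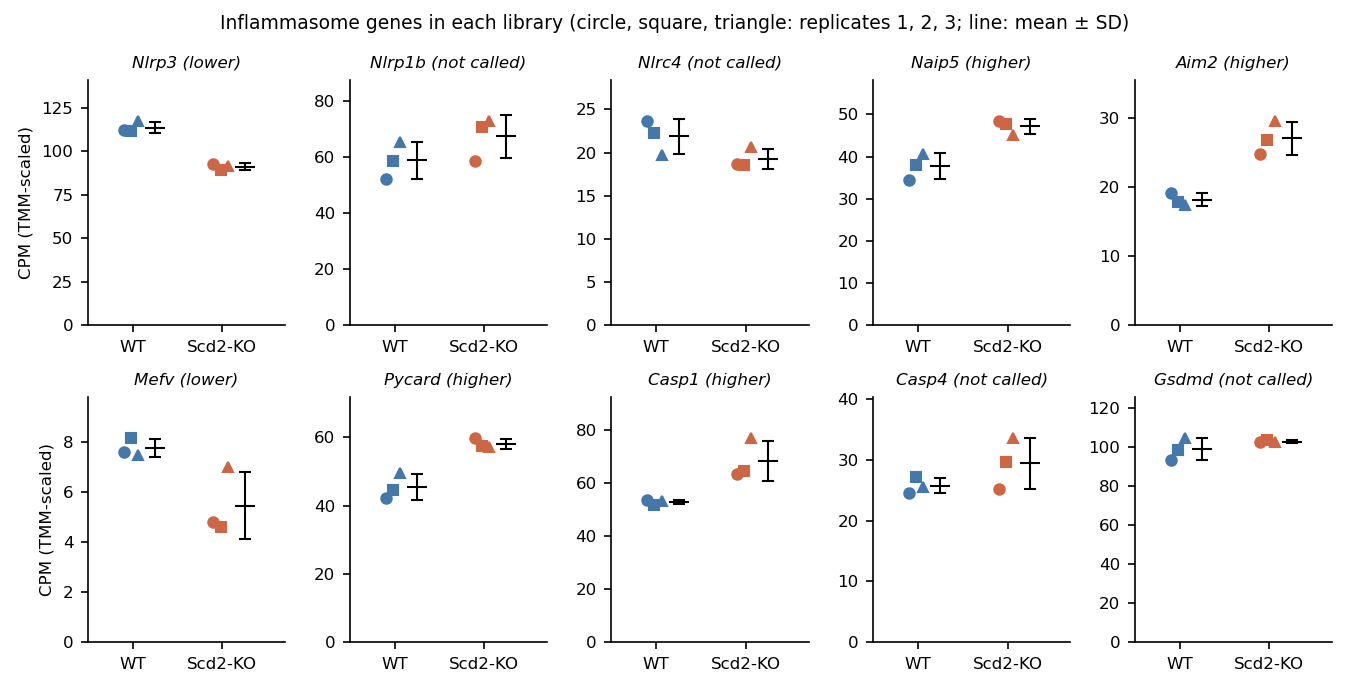
CPM on TMM-scaled library sizes (vertical axes from 0) of each inflammasome gene in the 3 WT and 3 Scd2-KO (*Scd2-m/-m*) libraries, with each library as a point and the mean ± SD beside the points. *Aim2*, *Pycard*, *Casp1* and *Naip5* lie higher and *Nlrp3* and *Mefv* lower in Scd2-KO with no overlap, while the libraries of *Nlrp1b*, *Nlrc4*, *Casp4* and *Gsdmd* overlap.

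The sequences before the starts of 4 of these genes are shown first, because they place side by side the pair of sensors that moved in opposite directions (*Nlrp3* and *Aim2*) and the neighbouring caspase genes of which 1 was called (*Casp1*) and 1 was not (*Casp4*). Each is the 250 bases before an annotated start, read 5′ to 3′ on the gene's strand from RefSeq promoter windows of build GRCm38.p6, which held 12 windows for 9 of the 10 members. The *Gsdmd* window was not analysed here. Capitals mark matches on either strand to the NFkB consensus or to GAGGAA, the core letters of sites for ETS family factors such as PU.1, and both were searched over the whole 300-base window that runs 50 bases past the start. The windows are chr11:59541319-59541568 and chr11:59542436-59542685 for *Nlrp3*, chr1:173420354-173420603 for *Aim2*, chr9:5298267-5298516 for *Casp1* and chr9:5308599-5308848 for *Casp4*, all on the plus strand. RefSeq starts can differ from the GENCODE gene coordinates given below. The *Aim2* window lies inside the gene interval of *Aim2*, and the *Naip5* window, not shown, does not reach that of *Naip5*.
*Nlrp3* (first start): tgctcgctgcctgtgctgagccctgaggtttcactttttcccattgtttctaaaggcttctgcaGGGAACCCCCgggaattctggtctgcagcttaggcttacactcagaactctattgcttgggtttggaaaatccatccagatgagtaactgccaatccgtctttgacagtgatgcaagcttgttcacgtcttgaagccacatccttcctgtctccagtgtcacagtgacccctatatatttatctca
*Nlrp3* (second start): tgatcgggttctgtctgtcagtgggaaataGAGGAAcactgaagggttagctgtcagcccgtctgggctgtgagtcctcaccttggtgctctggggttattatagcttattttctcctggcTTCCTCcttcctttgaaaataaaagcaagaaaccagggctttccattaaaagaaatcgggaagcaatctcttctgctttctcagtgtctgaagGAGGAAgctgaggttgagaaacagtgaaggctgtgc
*Aim2*: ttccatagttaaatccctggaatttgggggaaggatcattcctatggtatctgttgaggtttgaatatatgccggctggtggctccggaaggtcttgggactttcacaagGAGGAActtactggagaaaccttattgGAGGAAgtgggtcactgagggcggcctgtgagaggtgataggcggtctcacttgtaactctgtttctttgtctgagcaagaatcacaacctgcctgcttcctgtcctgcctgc
*Casp1*: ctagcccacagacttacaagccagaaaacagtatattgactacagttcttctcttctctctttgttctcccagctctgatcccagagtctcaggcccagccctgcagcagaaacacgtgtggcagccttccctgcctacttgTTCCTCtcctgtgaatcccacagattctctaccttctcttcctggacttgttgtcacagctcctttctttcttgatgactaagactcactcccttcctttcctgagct
*Casp4*: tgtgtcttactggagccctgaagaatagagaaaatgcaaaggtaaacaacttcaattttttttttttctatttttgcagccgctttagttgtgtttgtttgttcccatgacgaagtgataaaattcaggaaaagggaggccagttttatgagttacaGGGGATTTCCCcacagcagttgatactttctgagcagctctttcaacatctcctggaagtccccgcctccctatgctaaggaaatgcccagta
The NFkB consensus was in 4 of the 12 member windows, which belong to *Nlrp3*, *Naip5* and *Casp4* (both of its starts, whose windows overlap and hold the same site), and in 4.51% of the 32851 RefSeq windows of the same length. The *Casp4* match lay 93 bases before the start and is an overlapping run read on both strands, and the *Nlrp3* match lay 186 bases before the first start on the opposite strand. GAGGAA was in 5 of the 12 windows, those of *Aim2*, *Casp1*, *Pycard*, *Nlrp1b* and the second *Nlrp3* start, and in 28.3% of all windows. The letters of an interferon-stimulated response element (GAAANNGAAA) were in 0 of the 12 windows and in 3.44% of all windows, those of AP-1 (TGANTCA) in 0 and 7.81%, and TATAAA in 1, that of *Naip5*, and 13.6%. The *Naip5* match to TATAAA lay 236 bases before the start on the opposite strand. These are matches of letters in one window per start and say nothing of whether a factor is bound.

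*Nlrp3* senses potassium efflux and other disturbances of the cell and is the sensor of the inflammasome that is primed through NFkB. It lies at chr11:59541568-59566956 on the plus strand (GRCm38), and its WT libraries held 112, 111 and 117 CPM. The *Scd2-m/-m* libraries held 92.9, 89.0 and 91.5 CPM. Each *Scd2-m/-m* library lay below each WT library, and the spread within a genotype (SD = 3.34 and 1.98 CPM) was several times smaller than the difference of the means, 114 and 91.1 CPM. Its log2 fold change was -0.32 (SE = 0.056, n = 3 per genotype) with an adjusted p of 0.00142 from edgeR, and it stayed lower and called under each of 16 alternative settings, with log2 fold changes of -0.33 to -0.30.

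*Aim2*, a receptor for double-stranded DNA in the cytosol, showed the largest change of the 10 genes in the edgeR fit of all libraries, while the fall of *Mefv* was larger in size with quality weights (-0.69) and without *Scd2-m/-m* replicate 3 (-0.72). It lies at chr1:173350879-173466040 on the plus strand. The WT libraries held 19.2, 17.8 and 17.4 CPM and the *Scd2-m/-m* libraries 24.8, 26.9 and 29.6 CPM, so that the lowest *Scd2-m/-m* library was above the highest WT library. Its log2 fold change was 0.58 (SE = 0.081) with an adjusted p of 2.42e-04 from edgeR, and between 0.51 and 0.64 over the 16 alternatives, each of which called it.

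*Naip5* encodes a receptor that binds bacterial flagellin and then recruits the *Nlrc4* protein. *Naip5* lies at chr13:100211739-100246323 on the minus strand, among its paralogs *Naip2*, 9.65 kb away, and *Naip6*, 34.8 kb away. It was measured at 34.5, 38.1 and 40.6 CPM in WT and at 48.5, 47.8 and 45.2 CPM in *Scd2-m/-m* libraries. The groups did not overlap, and the log2 fold change was 0.32 (SE = 0.071) with an adjusted p of 0.00627 from edgeR. Of the 100-base stretches of its transcript, 16.2% also occur in another gene, most often in *Naip3* (8.72%), so that part of its reads could be assigned elsewhere, and the treatment of such reads by the counting tool is not stated. *Naip3* itself held 30 to 61 counts per library, at most 2.40% of the *Naip5* count. *Naip2*, a receptor for the rod protein of bacterial secretion systems, had a log2 fold change of 0.13 (adjusted p = 0.240, edgeR) and *Naip6*, another flagellin receptor, one of 0.20 (adjusted p = 0.0508), which passed the threshold in 7 of the 16 alternatives. *Naip5* was 23.9 ± 1.67% of the counts of *Naip1*, *Naip2*, *Naip5* and *Naip6* in WT and 26.1 ± 1.82% in *Scd2-m/-m* libraries (mean ± SD, n = 3), a difference with a two-sided exact permutation p of 0.2, where 0.1 is the smallest that 3 against 3 allows. With the counts of these paralogs summed, the log2 fold change was 0.20 (adjusted p = 0.0250, edgeR) and was still called.

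*Nlrc4*, at chr17:74425438-74459142 on the minus strand, encodes the platform that NAIP proteins recruit, and was not called. It held 23.7, 22.3 and 19.7 CPM in WT and 18.7, 18.5 and 20.6 CPM in *Scd2-m/-m* libraries, and the highest *Scd2-m/-m* library was above the lowest WT library. Its log2 fold change was -0.18 with a 95% interval from -0.36 to -0.0027 and an adjusted p of 0.159 (edgeR), and it was called lower in 1 of the 16 alternatives, limma-voom with quality weights, with a log2 fold change of -0.22 (adjusted p = 0.0278).

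*Nlrp1b*, which is activated when its amino-terminal part is cut or degraded, as by anthrax lethal factor, lies at chr11:71153102-71230733 on the minus strand. It was measured at 52.3, 58.7 and 65.5 CPM in WT and at 58.7, 70.8 and 72.9 CPM in *Scd2-m/-m* libraries. The ranges overlapped, since *Scd2-m/-m* replicate 1 lay level with the middle WT library. Its log2 fold change was 0.20 with a 95% interval from -0.0082 to 0.40 and an adjusted p of 0.183 (edgeR). Without *Scd2-m/-m* replicate 1 it was called, at 0.29 (adjusted p = 0.0343). Its neighbour *Nlrp1a*, 8.40 kb away, had a log2 fold change of 0.033 (adjusted p = 0.870, edgeR), and *Nlrp1b* made up 80.2 ± 3.32% and 82.0 ± 2.91% of their summed counts in the genotypes (two-sided exact permutation test, p = 0.5).

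*Mefv* encodes pyrin, a sensor of bacterial toxins that inactivate RHOA, and was the lowest of the 10 genes per exonic length. It lies at chr16:3707218-3718097 on the minus strand. The WT libraries held 7.62, 8.17 and 7.52 CPM, and the *Scd2-m/-m* libraries 4.80, 4.62 and 7.0 CPM. The third *Scd2-m/-m* library stood near the WT range while the other two were well under it. The log2 fold change was -0.50 (SE = 0.15) with an adjusted p of 0.0315 from edgeR. The call was lost without WT replicate 2 (-0.46, adjusted p = 0.123), without *Scd2-m/-m* replicate 1 (-0.41, adjusted p = 0.102) and without *Scd2-m/-m* replicate 2 (-0.39, adjusted p = 0.164), and it was kept without *Scd2-m/-m* replicate 3, at -0.72.

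*Pycard* encodes ASC, the adaptor that links *Nlrp3*, *Aim2* and pyrin to caspase 1 and gathers into a single speck per cell. It lies at chr7:127989708-127993867 on the minus strand. It was measured at 42.3, 44.6 and 49.7 CPM in WT and at 59.8, 57.4 and 57.1 CPM in *Scd2-m/-m* libraries. The groups were apart by more than their spread (SD = 3.77 and 1.47 CPM), with a log2 fold change of 0.35 (SE = 0.069) and an adjusted p of 0.00292 from edgeR. Its annotated exons share 485 bases (12.8%) with *Gm45205* on the opposite strand, and since the use of strand in the counting is not given, reads there cannot be told apart.

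*Casp1* encodes the protease that cuts the precursors of IL1B and IL18. The gene lies at chr9:5298517-5307265 on the plus strand, 1.56 kb before *Casp4* at chr9:5308828-5336783 on the same strand. *Casp1* was measured at 53.4, 51.9 and 53.3 CPM in WT and at 63.3, 64.7 and 76.9 CPM in *Scd2-m/-m* libraries, of which replicate 3 was the highest. The groups did not overlap, the log2 fold change was 0.37 (SE = 0.075) and the adjusted p was 0.00363 (edgeR). The gene was still called without *Scd2-m/-m* replicate 3, at 0.27 (adjusted p = 0.00908).

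*Casp4*, the mouse gene also known as caspase 11, encodes the protease that binds bacterial lipopolysaccharide in the cytosol and cuts gasdermin D without caspase 1. It held 24.6, 27.1 and 25.6 CPM in WT and 25.2, 29.6 and 33.5 CPM in *Scd2-m/-m* libraries. The order of the *Scd2-m/-m* libraries was that of *Casp1*, and the lowest of them lay within the WT range. The log2 fold change was 0.19 with a 95% interval from -0.0056 to 0.39 and an adjusted p of 0.178 (edgeR), and without *Scd2-m/-m* replicate 1 it was 0.29 and called (adjusted p = 0.0248).

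*Gsdmd* encodes gasdermin D, whose freed amino-terminal part forms the pores, and showed the smallest difference of the 10 genes. It lies at chr15:75862327-75867408 on the plus strand. Its libraries held 93.4, 98.6 and 105 CPM in WT and 103, 104 and 103 CPM in *Scd2-m/-m*. The *Scd2-m/-m* libraries lay inside the WT range. The log2 fold change was 0.058 (SE = 0.060) with a 95% interval from -0.070 to 0.19 and an adjusted p of 0.563 (edgeR), so that a rise past 0.19 on the log2 scale lay outside the interval.

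**Figure D2:**
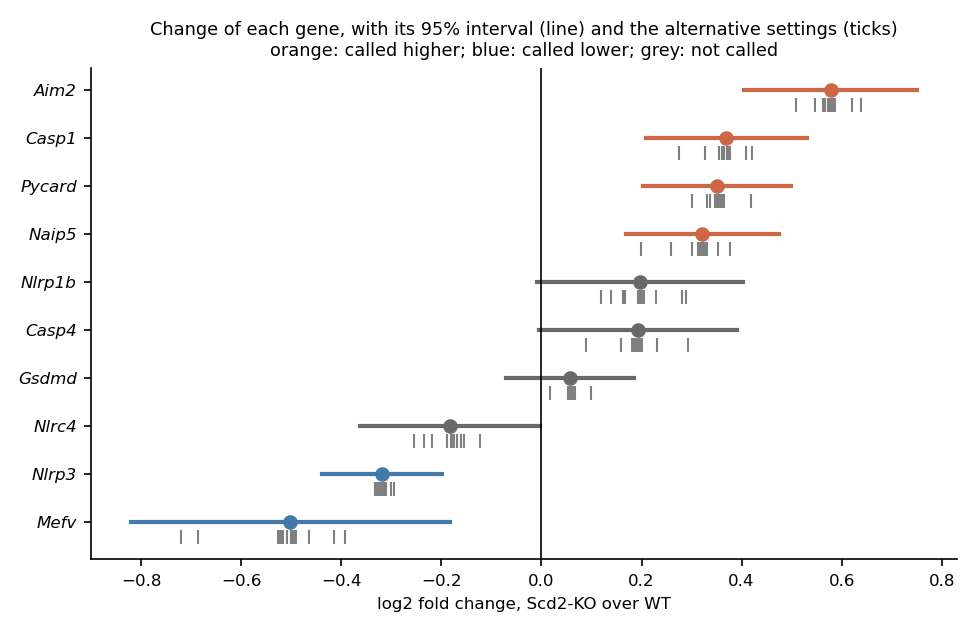
Log2 fold change (horizontal axis, Scd2-KO over WT) of the 10 inflammasome genes with the 95% interval of the edgeR fit as a line and the values under the alternative settings as grey ticks below it. The ticks of each gene stay on 1 side of 0, and those of *Mefv* spread most, from -0.72 to -0.39.

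Ratios of counts within a library do not depend on how libraries are scaled, and the following were chosen after the values were seen and carry no test. Per count of *Nlrp3*, the libraries held 0.466 ± 0.011 counts of *Casp1* in WT and 0.750 ± 0.082 in *Scd2-m/-m* (mean ± SD, n = 3). For *Pycard* the ratio was 0.40 ± 0.023 and 0.638 ± 0.012. For *Aim2* it was 0.160 ± 0.012 and 0.297 ± 0.029. The ranges of these ratios did not overlap between genotypes. This follows from *Nlrp3* lying lower and these genes higher without overlap, so it is no further support for their changes. With any 1 library left out, the *Scd2-m/-m* mean was 1.51 to 1.68 times the WT mean for *Casp1*, 1.55 to 1.64 times for *Pycard* and 1.78 to 1.96 times for *Aim2*. *Gsdmd*, which was itself not called, moved from 0.870 ± 0.032 to 1.13 ± 0.030 counts per count of *Nlrp3*. *Nlrp1b* (0.517 ± 0.046 and 0.741 ± 0.095) and *Casp4* (0.227 ± 0.015 and 0.323 ± 0.048), also not called, separated as well, as did *Naip5* (0.332 ± 0.021 and 0.518 ± 0.022). Part of each shift is thus the fall of *Nlrp3* itself. The ratios of *Nlrc4* (0.193 ± 0.023 and 0.212 ± 0.012) and *Mefv* (0.068 ± 0.0047 and 0.060 ± 0.014) overlapped between genotypes.

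Levels of different genes were compared as CPM per kb of annotated exon, an approximation, since the transcripts in use and the annotation release behind the counts may differ from it. In WT macrophages *Gsdmd* was at the top (41.6 ± 2.38 CPM per kb, mean ± SD, n = 3), followed by *Casp1* (35.3 ± 0.58), *Nlrp3* (28 ± 0.82) and *Pycard* (12.0 ± 0.99). *Nlrp1b* (9.33 ± 1.04), *Naip5* (7.25 ± 0.59) and *Casp4* (6.94 ± 0.35) came next, of which *Naip5* and *Casp4* overlapped between libraries. *Aim2* (5.18 ± 0.27), *Nlrc4* (4.55 ± 0.42) and *Mefv* (2.39 ± 0.11) were lowest. *Gsdmd* and *Casp1* thus stood above the sensors per length, and *Nlrp3* was the highest sensor. *Casp4*, whose protein also cuts gasdermin D, stood below *Nlrp3* and *Nlrp1b*. In *Scd2-m/-m* macrophages *Casp1* (45.6 ± 5.02) and *Gsdmd* (43.3 ± 0.23) overlapped at the top, and the other 8 genes kept their order, from *Nlrp3* (22.5 ± 0.49) and *Pycard* (15.3 ± 0.39) down to *Mefv* (1.68 ± 0.41). Between libraries, *Nlrp1b* (10.7 ± 1.22) overlapped *Naip5* (9.06 ± 0.33) there, and *Casp4* (7.93 ± 1.12) overlapped both *Naip5* and *Aim2* (7.73 ± 0.69), which did not overlap each other. *Pycard*'s exonic length of 3.80 kb includes a long annotated form, which lowers its value per kb. With the length of a shorter form *Pycard* would stand higher, so its place in the order holds only for this length.

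**Figure D3:**
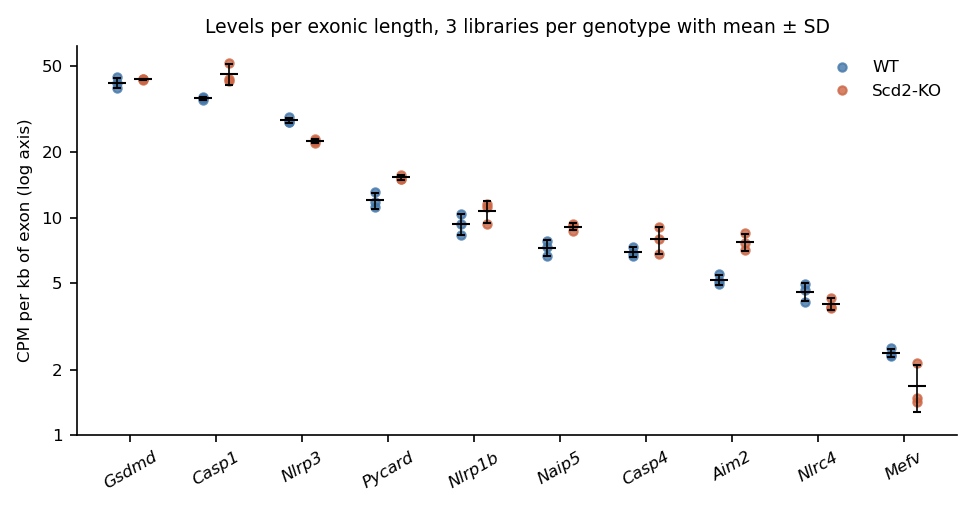
Level of each gene as CPM per kb of annotated exon (log axis), with the 3 WT and 3 Scd2-KO libraries as points and the mean ± SD, in the order of the WT means. *Gsdmd*, *Casp1* and *Nlrp3* lie above 20 CPM per kb in both genotypes and *Mefv* lies lowest.

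The other genes of the pathway were followed as 7 lists by role. Of 69 genes listed, 66 were matched by symbol and 61 were tested, and of these 10 were called higher, 8 were called lower and 43 were not called. *Gbp5*, *Pydc3* and *Pydc4* were not analysed here. The share called higher and lower can be read against the 9.65% and 7.84% of all genes tested, and the median log2 fold change was 0.057 against 0.0039 for all genes tested. Without WT replicate 2, 3 pathway genes were called higher and 7 lower, and without *Scd2-m/-m* replicate 2 the counts were 5 and 5.

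Among other sensors and receptors, 1 of 7 tested genes was called, *Zbp1*, a receptor for Z-form nucleic acids. It was measured at 38.3, 36.8 and 45.9 CPM in WT and at 56.0, 57.5 and 63.2 CPM in *Scd2-m/-m* libraries. It rose by 0.55 (SE = 0.083) on the log2 scale (adjusted p = 4.90e-04, edgeR), a change close in size to that of *Aim2*.

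Among assembly partners and regulators, 1 of 15 was called. *Gbp2*, a guanylate-binding protein that coats bacteria and helps to expose their lipopolysaccharide and DNA, rose by 0.33 (SE = 0.092, adjusted p = 0.0226, edgeR), and the call was lost when any 1 of WT replicates 1 and 2 and *Scd2-m/-m* replicates 2 and 3 was left out. *Nek7*, the kinase that binds NLRP3 during assembly, was at 105 ± 5.01 and 108 ± 11.9 CPM (log2 fold change 0.041, 95% interval from -0.12 to 0.20, adjusted p = 0.770). *Txnip*, a thioredoxin-binding protein linked to NLRP3, was at 565 ± 14.7 and 633 ± 18.8 CPM (0.16, adjusted p = 0.0780).

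Of 8 genes for ion channels, ATP receptors among them, 2 were called, both lower. *Trpm2*, a calcium-permeable channel opened under oxidative stress, was measured at 19.4, 21.8 and 23.7 CPM in WT and at 14.4, 14.0 and 14.1 CPM in *Scd2-m/-m* libraries. It fell by 0.61 (SE = 0.085) on the log2 scale (adjusted p = 2.38e-04, edgeR). *P2rx4*, an ATP-gated channel, fell by 0.30 (SE = 0.066, adjusted p = 0.00598), with an adjusted p of 0.0502 without *Scd2-m/-m* replicate 2. *P2rx7*, the ATP receptor through which extracellular ATP causes potassium efflux, was at 195 ± 16.7 and 171 ± 3.28 CPM with a log2 fold change of -0.19, whose adjusted p of 0.0638 missed the threshold and passed it in 5 of the 16 alternatives.

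The cytokine substrates and their antagonists held 4 called genes of 5. *Il1b*, the main substrate of caspase 1, was at 39.3, 40.6 and 36.0 CPM in WT and at 6.31, 6.53 and 7.95 CPM in *Scd2-m/-m* libraries. The log2 fold change of -2.48 (SE = 0.094, adjusted p = 2.79e-09, edgeR) was larger in size than that of any of the 10 core genes. The other three called genes were higher in *Scd2-m/-m*. *Il18*, the second substrate, went from 4.45 ± 0.49 to 6.06 ± 0.51 CPM (0.45, adjusted p = 0.0289), a call lost without WT replicate 2 or *Scd2-m/-m* replicate 1 or 2. *Il1rn*, the antagonist of the IL1 receptor, rose by 0.66 (adjusted p = 0.00150), and *Il18bp*, a decoy for IL18, by 0.60 (adjusted p = 0.00361). *Il1a* had 10 to 23 counts per library, and its log2 fold change of 0.69 was not called (95% interval from -0.18 to 1.57, adjusted p = 0.276). Of the genes of the cytokines that caspase 1 cuts, *Il1b* was thus lower and *Il18* higher, while *Casp1* itself was higher. *Gsdmd*, the gene of its substrate gasdermin D, was not called.

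Of 10 tested genes for other caspases, gasdermins, membrane rupture and repair, 2 were called higher and 1 lower. *Ninj1*, which ruptures the plasma membrane after gasdermin pores form, was at 626, 639 and 676 CPM in WT and at 501, 536 and 537 CPM in *Scd2-m/-m* libraries, and fell by 0.30 (SE = 0.062, adjusted p = 0.00403, edgeR). *Casp12* rested on 6 to 14 counts in WT and 24 to 56 counts in *Scd2-m/-m* libraries. The log2 fold change of 1.45 (SE = 0.45, adjusted p = 0.0395) lost the call in 8 alternatives.

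Of 3 tested inhibitors, *Trim30a*, which restrains NLRP3, was higher (0.29, adjusted p = 0.0188, edgeR) and *Tnfaip3*, which encodes the NFkB inhibitor A20, was lower (-0.20, adjusted p = 0.0316). Without WT replicate 2 or *Scd2-m/-m* replicate 2 neither was called, and *Trim30a* also lost its call without *Scd2-m/-m* replicate 3 and *Tnfaip3* without WT replicate 1 or 3. *Serpinb1a*, a caspase inhibitor gene with 4 to 7 counts in WT and 14 to 25 in *Scd2-m/-m* libraries, had a log2 fold change of 1.46 that was not called (adjusted p = 0.0590).

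Among 13 genes of priming and transcription, 2 were called higher and 3 lower. *Nfkb1*, an NFkB subunit gene, was at 220, 231 and 215 CPM in WT and at 170, 170 and 173 CPM in *Scd2-m/-m* libraries, and fell by 0.38 (SE = 0.056, adjusted p = 3.86e-04, edgeR). *Myd88*, the adaptor of most Toll-like receptors, fell by 0.27 (adjusted p = 0.00961), and *Irf1*, an interferon-induced transcription factor, by 0.28 (adjusted p = 0.0135). *Tlr4*, the lipopolysaccharide receptor, rose by 0.27 (adjusted p = 0.0117), and the adaptor *Ticam1* by 0.29 (adjusted p = 0.0180). *Irf8*, a myeloid factor known to drive Naip transcription, was at 237 ± 15.1 and 235 ± 5.14 CPM (log2 fold change -0.012, 95% interval from -0.14 to 0.12, adjusted p = 0.920). *Tlr4* and its adaptor *Ticam1* were thus higher while its adaptor *Myd88* was lower. Without WT replicate 2 neither of the genes called higher was called. The *Tlr4* call was also lost without *Scd2-m/-m* replicate 2, that of *Myd88* without *Scd2-m/-m* replicate 2 and that of *Irf1* without WT replicate 3.

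**Figure D4:**
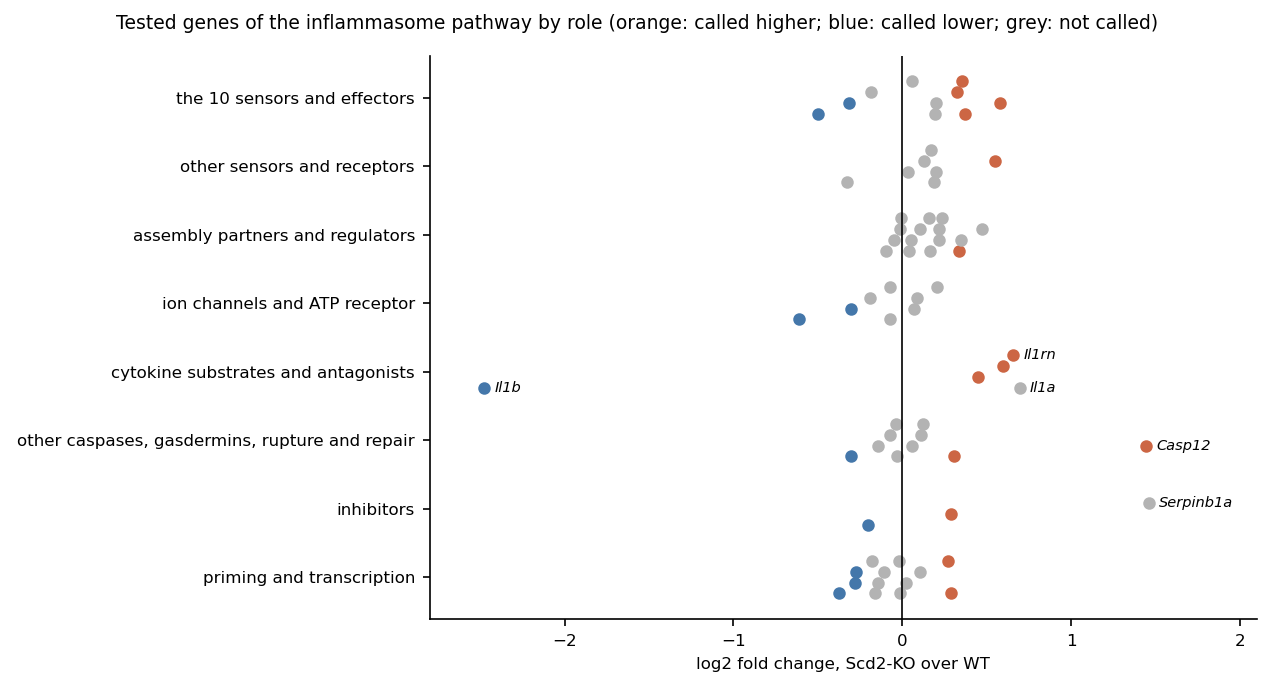
Log2 fold change (horizontal axis, Scd2-KO over WT) of each tested gene in the 7 pathway lists and of the 10 sensors and effectors, in rows by role, with genes past 0.65 in size named. Most points lie within 0.65 of 0, and *Il1b* stands far to the left at -2.48.

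*Aim2*, *Casp1*, *Casp4*, *Zbp1* and the guanylate-binding protein genes are known to respond to interferon, so a separate list of 12 interferon-stimulated genes was read beside them. Of these, 3 were called higher (*Ifi44*, *Irf7* and *Oasl2*), 2 to 9 with a library left out, 0 were called lower and the log2 fold changes of the 12 ran from 0.0013 to 0.90. The count called higher was 9 without WT replicate 3 and 2 without WT replicate 2 or *Scd2-m/-m* replicate 3. Over all genes tested, 9.65% were called higher and 7.84% lower. *Irf1*, itself interferon-induced but counted with the priming genes, was called lower (log2 fold change -0.28, adjusted p = 0.0135, edgeR). The summed level of the 12 listed genes was 888, 838 and 1025 CPM in WT and 1109.6, 1107 and 1188 CPM in *Scd2-m/-m* libraries. *Scd2-m/-m* replicate 3 was thus highest in this sum, in the monocyte and progenitor markers and in *Aim2*, *Casp1* and *Casp4*. The same library was also highest in *Nlrp1b*, and highest of its genotype in *Nlrc4*, which are not among the genes named above for interferon. It was the lowest of its genotype in *Pycard*, *Naip5* and, by a small margin, *Gsdmd*, and it was also the *Scd2-m/-m* library nearest to WT for *Mefv*. Whether either shift has a part in the inflammasome genes was not tested.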

How the data were processed

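Poly(A)-selected RNA of 6 BMDM samples, 3 per genotype by the labels, was sequenced on an Illumina NovaSeq. The authors aligned reads with STAR to the Ensembl release 76 primary assembly (GRCm38). What they deposited are raw counts for each gene, as whole numbers. The sources used here name no counting tool and no strand setting. Between 60.9% and 64.8% of counts from 1 to 20 were even, so 1 count may not be 1 fragment, and an alternative halved the counts. The authors' own comparison (log2 fold changes, confidence limits, p-values and log2 CPM) was not used. Of 40757 entries, 276 repeating a gene were removed.

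Counts were tested with edgeR 4.0.16 in R 4.3.3 (filterByExpr, TMM factors, robust quasi-likelihood fit), with Benjamini-Hochberg adjustment over 14778 genes and calls at an adjusted p below 0.05. The SE is the log2 fold change over the square root of F. The test was checked on simulated counts. Alternatives used limma 3.58.1, DESeq2 1.42.0, other factors and filters, a replicate block, and each library left out. CPM use TMM-scaled totals. Coordinates and exons are from GENCODE M21 (GRCm38). The NFkB consensus is the 10-base kappa B consensus.

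The genes, lists and named genes were chosen with earlier results of these data known. Named are the 10 genes, *Scd2*, the called genes of lowest p in each list (at most 4), and *Il1b*, *Il18*, *Il1a*, *Nek7*, *P2rx7*, *Ninj1*, *Naip2*, *Naip6*, *Nlrp1a*, *Gbp5*, *Irf8*, *Txnip* and *Serpinb1a* whatever their result. Marker genes are given as list counts with the marker of highest level. *Ly6g*, the names of the neutrophil markers called higher and of the macrophage markers called, *Ticam1* and the ratios to *Nlrp3* were added after their values were seen. A called gene of the pathway lists is counted but not reported here by name.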

Additional observations from a re-analysis of the deposited data

How the results depend on the processing

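Over 16 alternative settings (6 of which left out 1 library), the fold changes of the 10 genes kept their direction. *Nlrp3*, *Aim2*, *Pycard*, *Casp1* and *Naip5* kept their calls and *Gsdmd* stayed uncalled, and the changes of call for *Mefv*, *Nlrc4* and *Casp4* stand beside their results. *Nlrp1b* was called with quality weights (0.23, adjusted p = 0.0242), without the filter (0.20, adjusted p = 0.0418), with the replicate block (0.20, adjusted p = 0.0305) and without *Scd2-m/-m* replicate 1. Of 638 values for 40 named genes, 576 kept direction and call, 33 lost the call, 25 gained it and 4 changed direction. Those 4 arose with 1 library left out, where *Nek7* ran from -0.044 to 0.11, *Nlrp1a* from -0.036 to 0.12 and *Irf8* from -0.043 to 0.040.

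With 1 library left out, members called higher numbered 4 to 6 and called lower 1 to 2, the one lost being *Mefv*, and over all genes 1440 (without *Scd2-m/-m* replicate 2) to 2567 were called instead of 2585, with 1490 without WT replicate 2. Pathway genes then called higher numbered 3 (without WT replicate 2) to 11 and called lower 5 (without *Scd2-m/-m* replicate 2) to 10. By list these ranges were 1 to 2 higher for other sensors, 0 to 3 higher for assembly partners, 0 to 1 higher and 1 to 3 lower for ion channels, 2 to 3 higher for cytokine genes, 0 to 2 higher for other caspases and gasdermins, 0 to 1 in each direction for inhibitors, 0 to 2 higher and 2 to 5 lower for priming, and 2 to 9 higher for interferon-stimulated genes.

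Over the settings that kept all libraries, pathway genes called higher ran from 9 to 18 and called lower from 8 to 12. Quality weights in limma-voom moved counts to 4507 of all genes, 18 pathway genes higher and 12 lower, and 5 members higher and 3 lower. Among the lists, 3 other sensors, 6 assembly partners, 1 channel, 1 of the other caspases, 2 inhibitors and 8 interferon-stimulated genes were then higher and 6 priming genes lower. Under the other settings, other sensors called higher were 2 with upper-quartile factors, a minimum of 10 counts, halved counts and the block, and 3 without the filter. Assembly partners called higher were 2 with upper-quartile factors, both filters, halved counts and log2(CPM + 0.5), 3 with DESeq2 and 4 with the block. Without the filter 1 channel was called higher. Other caspases called higher were 1 with limma-voom, a minimum of 10 counts and the block, priming genes called lower were 5 with the block, and interferon-stimulated genes called higher were 5 with limma-voom and without the filter, 6 with log2(CPM + 0.5) and 7 with the block.

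Whether the replicate numbers pair the samples was not settled. Same-numbered libraries correlated at 0.10, -0.054 and 0.083 in their deviations, and libraries of unlike number at -0.14 to 0.070. Replicates 1 and 3 correlated best with their own number, and replicate 2 did not. With the block 2974 genes were called. The cause of these changes was not tested. At this depth genes with few counts, such as *Casp12*, *Il1a* and *Serpinb1a*, are measured with wide intervals.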
